A study of Mus musculus with 8 samples.

Results

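The maternally expressed imprinted genes were examined in mouse stem cells before and after cell fusion. The symbols H19, Igf2r, Cdkn1c, Meg3, Rian, Mirg, Grb10, Phlda2, Gtl2 and Slc22a18 were looked up among the 24354 genes of the deposited expression table. Of these 10 symbols, 9 had a row. Gtl2 had no row of its own, and RefSeq lists it as a synonym of Meg3, so 9 genes remain. These symbols were selected on their FPKM in all 4 cell types, which was known when the list was drawn up. The differences given here are therefore a description set against the replicate spread, not independent evidence about these genes.

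Imprinted genes carry a methylation mark that is set in the egg or the sperm and kept through the early embryo, so that transcripts come mainly from 1 parental copy. They lie in domains, each controlled by a differentially methylated region, in which maternally and paternally expressed genes often oppose each other in growth. Several maternally expressed genes restrain growth: Igf2r clears the growth factor IGF2, Grb10 dampens insulin and IGF receptor signalling, Cdkn1c encodes the cyclin-dependent kinase inhibitor p57, and Phlda2 limits the placenta. Pluripotent stem cells are known to lose or alter such marks in culture, and the Meg3 domain is a region often examined in reprogrammed cells. The expression table holds 1 level per gene and does not separate the parental copies, so the labelled maternal expression could not be checked in these cells.

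RNA sequencing covered 8 libraries, 2 in each of 4 groups. The ESCs were E14 embryonic stem cells labelled wild type, and the NSCs were neural stem cells from OG2+/-/ROSA26+/- double-transgenic mice, which carry a GFP reporter driven by the distal enhancer of Oct4. The EPSCs, extended pluripotent stem cells from eight-cell C57BL/6 embryos and also labelled wild type, were 1 line at passage 15. The EPSC-NSC hybrid cells were 1 tetraploid line at passage 10, obtained by fusing EPSCs with NSCs by polyethylene glycol and kept in the EPSC medium of N2B27 with LIF, CHIR99021, dimethindene maleate and minocycline hydrochloride. All libraries were labelled undifferentiated. ESCs, EPSCs and hybrid cells were grown on mitotically inactivated mouse embryonic fibroblasts, and NSCs on gelatin. ESCs, EPSCs and hybrid cells were thus 1 cell line each, and the labels do not say whether the 2 NSC libraries share a line. The p-values rest on the spread between libraries of the same group, pooled over all 4 groups and partly shared across genes. This spread may be technical, and that of ESCs and NSCs also enters the comparison of hybrid cells with EPSCs.

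Levels are given as FPKM, in which the fragments of a gene are divided by its length in kilobases and by the mapped fragments in units of 1000000, so that genes can be compared per length. The steps between low FPKM values corresponded to about 21.95 to 32.55 fragments per library in units of 1000000. Pluripotency markers summed to 5289 to 5600 FPKM in ESCs, 2.35 to 2.93 in NSCs, 4723 to 5070 in EPSCs and 4857 to 5354 in hybrid cells. Neural stem cell markers summed to 4351 to 4401 in NSCs and were far lower elsewhere, so these markers separated NSCs from the other libraries. Among the other libraries, the neural sums were 12.5 to 12.6 in ESCs, 16.4 to 16.6 in hybrid cells and 27.3 to 27.7 in EPSCs. Fibroblast markers summed to 19.3 to 21.8 in ESCs, 22.9 to 24.5 in NSCs, 78.2 to 79.9 in EPSCs and 215 to 295 in hybrid cells. Most of the NSC sum came from S100a4, Prrx1 and Fbn1, with means of 11.6, 7.03 and 3.89 FPKM. The NSC mean of Col1a1 was 0.209, and Col1a2, Twist2 and Lum were at 0, so the NSC and ESC sums differ in make-up. These libraries are bulk samples, in which fewer cells of a type and less RNA per cell cannot be told apart.

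In NSCs, Meg3, Rian, Mirg and Phlda2 were listed at 0 in both libraries, and Grb10 and Slc22a18 were below 0.1 FPKM, whereas all 9 genes were above 1 FPKM in every ESC, EPSC and hybrid library. The hybrid cells differed from the EPSCs: H19 and Igf2r were higher, and Rian, Mirg, Grb10 and Phlda2 were lower. Differences between groups were tested with limma on log2(FPKM + 1) over 13239 genes, with the Benjamini-Hochberg adjustment and a threshold of 0.05. Log2 differences on this scale understate the change of genes with low FPKM and depend on the pseudocount where a group is near 0: with 0.1 in place of 1, the difference between hybrid cells and NSCs was 8.07 for Meg3, against 4.79.

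**Figure D1:**
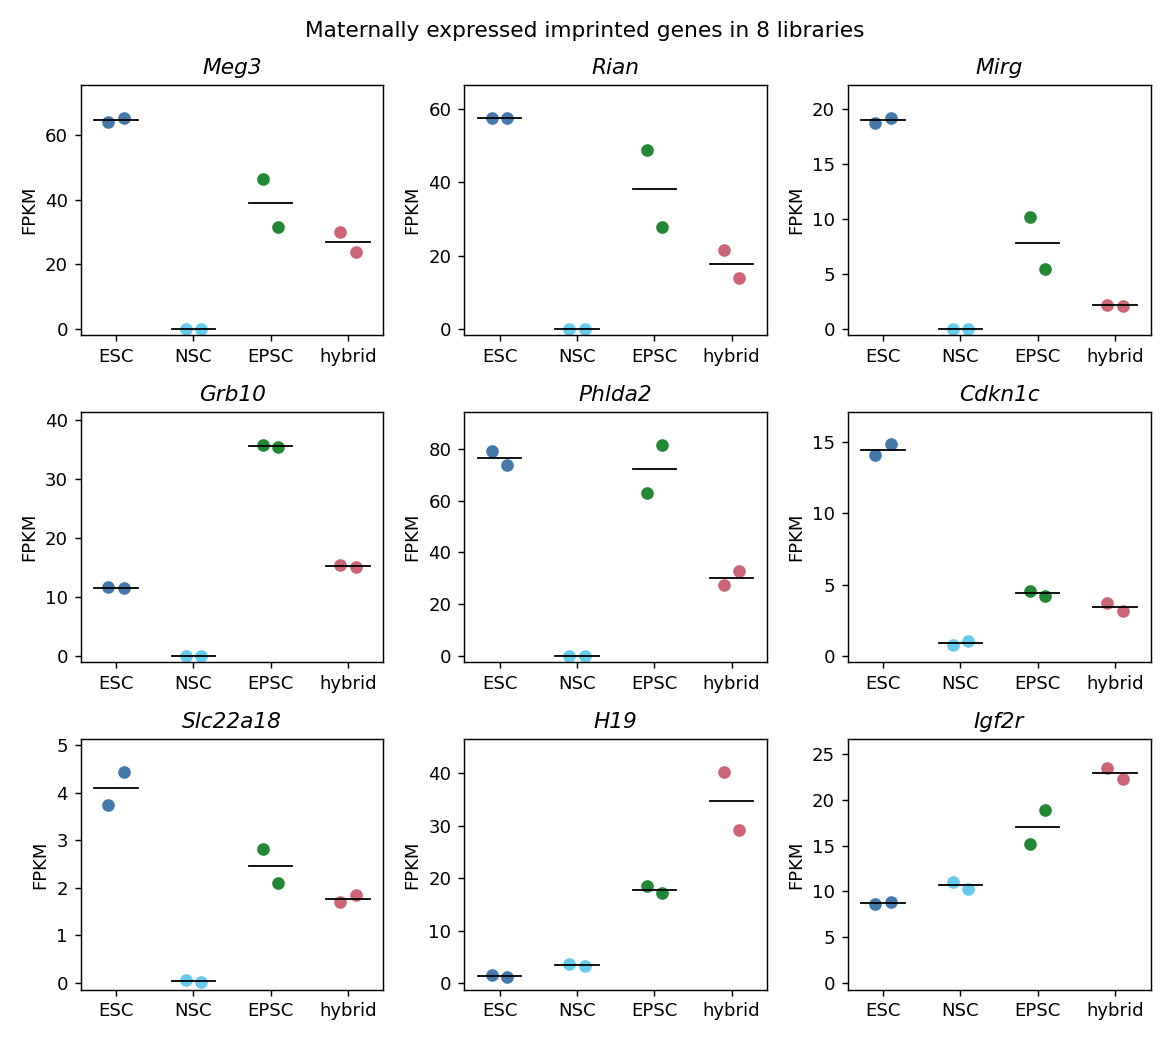
FPKM of the 9 maternally expressed imprinted genes in each of the 8 libraries, 1 panel per gene, with FPKM on the vertical axis, the 4 groups on the horizontal axis, 1 point per library and a line at each group mean. Meg3, Rian, Mirg and Phlda2 lie at 0 in both NSC libraries, and H19 is highest in the hybrid cells, at 29.3 and 40.3 FPKM.

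In the comparison of hybrid cells with EPSCs, which asks how far the hybrid cells depart from the pluripotent parent, 2 of the 9 genes rose, 4 fell and 3 did not pass the limma test. Of all genes tested, 22.5% were called higher and 21.9% lower. The median difference of the 9 genes was −0.51, against 0 over all genes tested, and it was −0.24 without EPSC replicate 1 and −0.78 without EPSC replicate 2. Against NSCs, the neural parent, all 9 rose in the hybrid cells, where 44.5% of genes tested were called higher, and the median difference was 2.98 against 0.06. EPSCs compared with NSCs also had all 9 genes higher, beside 45.2% of genes tested, with a median of 3.08 against 0.08. When libraries were scaled to equal sums, 8 of the 9 were called higher, and 87.5% of genes tested were called in either direction. In EPSCs against ESCs, 3 genes rose, 4 fell and 2 did not pass, beside 33.7% called higher and 27.3% called lower, and the median was −0.56 against 0.04, or −0.28 without EPSC replicate 2. In the order given, the libraries of 9, 9, 9 and 8 of the 9 genes did not overlap between the groups, beside 68.1%, 92.7%, 92.9% and 83.3% of genes tested, so that a lack of overlap was common in these data. All pairs of these comparisons share libraries except hybrid cells against NSCs and EPSCs against ESCs.

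The fold rule of the study's methods was also applied, read here as more than 3 FPKM on average in the group with more expression and a ratio of means above 3. The methods do not say over which libraries the average is taken. Between hybrid cells and EPSCs only Mirg passed it, as lower, beside 0.3% of all genes. In hybrid cells against NSCs, Cdkn1c, Grb10, H19, Meg3, Phlda2 and Rian passed as higher, 6 of 9 beside 6.92%, and in EPSCs against NSCs Mirg joined them, 7 of 9 beside 6.7%. With the average taken over both groups, a reading added after the data were seen, 5 and 6 of the 9 passed as higher in these comparisons with NSCs, beside 5.74% and 5.53%. H19 and Grb10 passed as higher and Cdkn1c as lower in EPSCs against ESCs, beside 1.28% and 1.29% of all genes. The count between hybrid cells and EPSCs rested on EPSC replicate 1: without it, 0 members passed. The study's results text gives both thresholds as 2 instead. With these, Rian, Grb10 and Phlda2 also passed as lower between hybrid cells and EPSCs, 4 of 9 beside 1.16% of all genes. In hybrid cells and in EPSCs against NSCs, 8 of 9 then passed as higher, beside 12.5% and 12.3%. In EPSCs against ESCs, 2 passed as higher and 2 as lower, beside 3.51% and 3.56%.

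**Figure D2:**
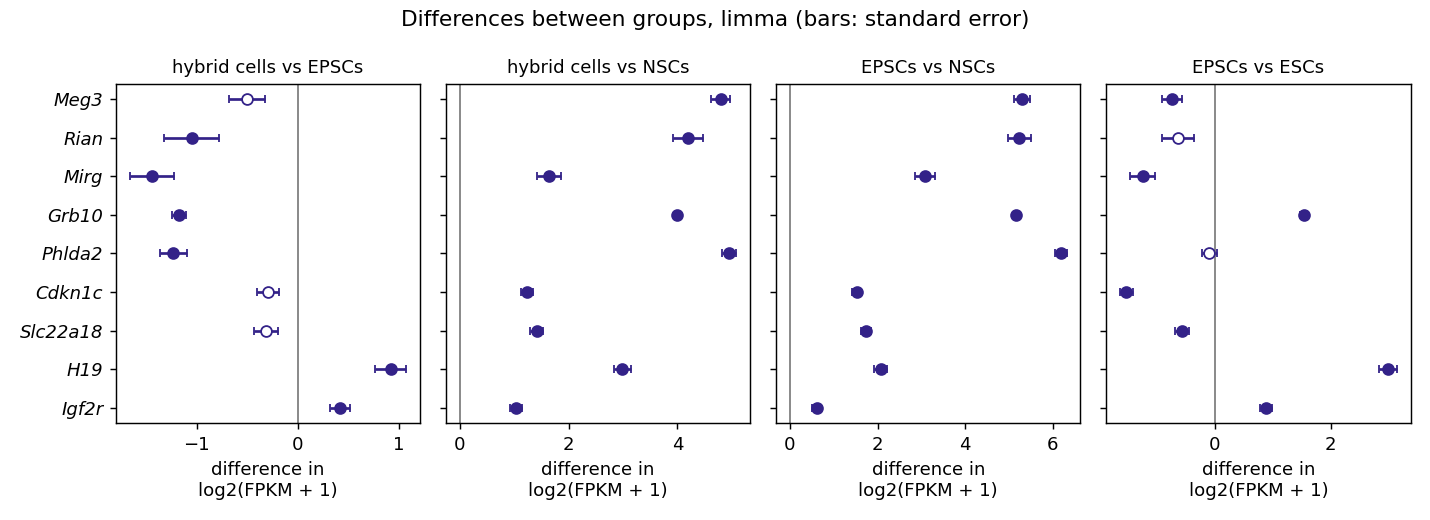
Differences between groups in log2(FPKM + 1) from limma for the 9 genes in the 4 comparisons, with the standard error as bars, the difference on the horizontal axis, filled points for genes past the threshold and open points for the others. Against NSCs all 9 genes lie above 0, whereas between hybrid cells and EPSCs only H19 (0.91) and Igf2r (0.42) do.

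Meg3, Rian and Mirg are long noncoding RNAs transcribed in the same direction from the maternal copy of the Dlk1-Dio3 domain. In RefSeq on GRCm38 they lie on the plus strand at chr12:109540996-109571729 for Meg3, chr12:109603945-109661716 for Rian and chr12:109734981-109749458 for Mirg. Rian is a host of small nucleolar RNAs and Mirg is a host of many microRNAs. The 250 bases before each start are shown because the 3 transcripts were listed at 0 together in NSCs. They come from RefSeq (GRCm38.p6), read 5′ to 3′ on the plus strand, with CG dinucleotides in capitals, at chr12:109540746-109540995, chr12:109603695-109603944 and chr12:109734731-109734980.
Meg3: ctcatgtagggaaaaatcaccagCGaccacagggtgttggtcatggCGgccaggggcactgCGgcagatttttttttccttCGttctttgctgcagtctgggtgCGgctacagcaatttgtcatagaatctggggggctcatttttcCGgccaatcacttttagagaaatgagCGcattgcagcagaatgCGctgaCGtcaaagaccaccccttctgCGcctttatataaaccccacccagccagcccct
Rian: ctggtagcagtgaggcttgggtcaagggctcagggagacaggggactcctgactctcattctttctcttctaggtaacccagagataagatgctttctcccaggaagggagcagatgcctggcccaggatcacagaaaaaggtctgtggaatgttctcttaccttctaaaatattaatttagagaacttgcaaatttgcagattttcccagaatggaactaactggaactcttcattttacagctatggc
Mirg: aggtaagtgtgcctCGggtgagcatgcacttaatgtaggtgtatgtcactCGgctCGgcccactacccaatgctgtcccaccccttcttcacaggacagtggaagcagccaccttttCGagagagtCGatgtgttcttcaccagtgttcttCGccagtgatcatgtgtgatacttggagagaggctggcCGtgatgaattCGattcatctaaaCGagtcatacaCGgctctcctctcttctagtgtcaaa
The Meg3 window held 10 CG dinucleotides and the Mirg window also 10, a number reached by 37.8% of the 32851 promoter windows of this length, whose median was 6. The Rian window held 0, as did the window before another Meg3 start, at chr12:109545148-109545397 inside the gene span. GENCODE starts Mirg at position 109729764, before the window shown. On both strands, the letters TGCCGC, the core of the ZFP57 motif, occurred 1 time before Meg3 and in none of the other windows available for these genes. H19 and Cdkn1c had no window and were not searched. Of all windows, 8.68% held these letters. The letters TATAAA occurred 2 times before Meg3, and in 12.4% of all windows.

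Meg3 measured 63.9 and 65.4 FPKM in ESCs, 46.4 and 31.6 in EPSCs, and 30.1 and 23.7 in hybrid cells. Rian measured 57.7 and 57.5 FPKM in ESCs, 48.8 and 27.7 in EPSCs, and 21.6 and 13.8 in hybrid cells. Mirg measured 18.8 and 19.2 FPKM in ESCs, 10.1 and 5.42 in EPSCs, and 2.14 and 2.09 in hybrid cells. All 3 RNAs were thus highest in ESCs, lower in EPSCs and lowest in hybrid cells, without overlap between these groups, and they were listed at 0 in both NSC libraries.

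Mirg fell in hybrid cells against EPSCs by 1.44 on the log2 scale (SE 0.22, adjusted p = 0.00232 by limma), from a mean of 7.79 ± 3.34 to 2.12 ± 0.0360 FPKM (SD, n = 2), so that its level in EPSCs was 3.68 times that in hybrid cells. Rian fell by 1.05 (SE 0.27, adjusted p = 0.0174 by limma), from 38.3 ± 14.9 to 17.7 ± 5.52 FPKM, but the adjusted p was 0.0765 without hybrid replicate 2 and 0.0970 when only these 2 groups were fitted. Without EPSC replicate 1, the Rian difference was −0.65 with an adjusted p of 0.0652 by limma. For Meg3 the means were 39.0 ± 10.5 and 26.9 ± 4.53 FPKM (SD, n = 2), and the difference of −0.51 (SE 0.18) did not pass, at an adjusted p of 0.0518 by limma. Over the alternatives, the adjusted p ranged from 0.00750 to 0.224 and the difference from −0.78 without EPSC replicate 2 to −0.23 without EPSC replicate 1. The call for Meg3 thus depended on the alternative: it passed with scaling to equal sums (0.0358) and with a block on the replicate number (0.0273).

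In EPSCs against ESCs, Meg3 fell by 0.74 on the log2 scale (SE 0.18, adjusted p = 0.00850 by limma). This call was lost without ESC replicate 2, at an adjusted p of 0.0510, and the difference was −0.47 without EPSC replicate 2, at 0.0260. Mirg fell by 1.24 (SE 0.22, adjusted p = 0.00221 by limma), so that the ESC mean was 2.44 times the EPSC mean. The Rian difference of −0.63 did not pass, at an adjusted p of 0.0765 by limma, but it passed with a block on the replicate number, at 0.0312. It was −1.03 without EPSC replicate 1 and −0.24 without EPSC replicate 2. The EPSC libraries differed for all 3 RNAs: replicate 1 was 1.47 times replicate 2 for Meg3, 1.76 times for Rian and 1.87 times for Mirg, and 9.56%, 4.59% and 3.79% of genes tested had as large a ratio. Dnmt3l, a cofactor of de novo DNA methylation, was also higher in EPSC replicate 1, at 111 and 58.8 FPKM. In hybrid replicates 1 and 2 it measured 69.9 and 16.8 FPKM, a ratio of 4.17, where the ratios were 1.27 for Meg3, 1.57 for Rian and 1.02 for Mirg, and its part in the results was not tested.

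The ratios within the domain also differed between cell types. Rian over Meg3 was 0.904 and 0.881 in ESCs, 1.05 and 0.878 in EPSCs, and 0.717 and 0.582 in hybrid cells. Mirg over Meg3 was 0.294 and 0.294 in ESCs, 0.218 and 0.172 in EPSCs, and 0.0712 and 0.0884 in hybrid cells. Relative to Meg3, Mirg was therefore lower in both hybrid libraries than in every EPSC and ESC library, and Rian was also lowest in the hybrid cells. With 2 libraries against 2, the exact permutation test cannot give a two-sided p below 0.333, so these ratios are a description.

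**Figure D3:**
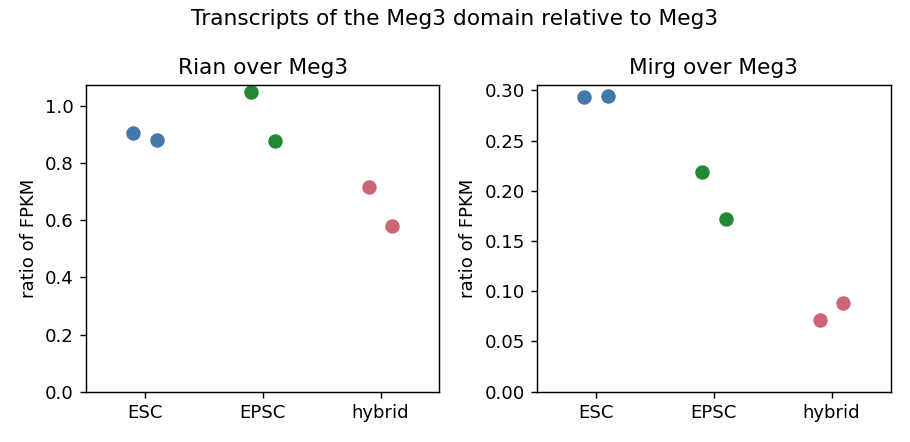
FPKM of Rian and of Mirg divided by the FPKM of Meg3 in each ESC, EPSC and hybrid library, 1 point per library, on linear axes that start at 0. NSCs are left out because Meg3 was listed at 0 there, and both hybrid libraries lie lowest in each panel.

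The domain's protein-coding genes are expressed from the paternal copy. Dio3, a deiodinase that inactivates thyroid hormone, measured 5.32 and 4.96 FPKM in ESCs, 0 and 0 in NSCs, 5.67 and 5.55 in EPSCs, and 2.13 and 2.7 in hybrid cells. It fell in hybrid cells against EPSCs by 0.96 on the log2 scale (adjusted p = 0.000488 by limma). Dlk1, a Notch pathway ligand, stayed between 0.0762 and 0.721 FPKM in all libraries and Rtl1, a gene derived from a retrotransposon, at or below 0.00895 FPKM, and neither was tested. Dio3 was thus listed at 0 in NSCs like the maternally expressed RNAs, and Dlk1 and Rtl1 were low in every cell type.

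MicroRNAs inside the member genes are named here because H19 and the Meg3 domain RNAs are known as their precursors. RefSeq places 16 microRNA genes within the spans of H19 (1), Meg3 (2), Rian (3) and Mirg (10). The longer GENCODE span of Mirg also holds Mir382, Mir134, Mir668 and Mir485, which are not counted here. Mir668 and Mir485 lie inside the Mirg window shown above. All 16 genes counted had a row and were listed at 0 in every library. The libraries were poly-A selected and not made for such short RNAs. Of their 30 mature sequences, 1 seed was shared, between miR-453 and miR-496a-5p. Mature sequences of 1 microRNA from each host, with both arms for H19, are shown from RefSeq 5′ to 3′ with the seed, bases 2 to 8, in capitals, so that the products of each host can be told apart.
miR-675-5p (H19): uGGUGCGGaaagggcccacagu
miR-675-3p (H19): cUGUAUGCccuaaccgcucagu
miR-770-5p (Meg3): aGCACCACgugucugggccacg
miR-370-3p (Rian): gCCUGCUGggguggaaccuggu
miR-410-3p (Mirg): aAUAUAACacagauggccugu
The levels of the host RNAs are no measure of these mature microRNAs.

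H19 is a long noncoding RNA of the Igf2 domain, on the minus strand at chr7:142575530-142578146, and it shares an imprinting control region and enhancers with Igf2, the paternally expressed growth factor gene. H19 measured 1.60 and 1.17 FPKM in ESCs, 3.62 and 3.31 in NSCs, 18.4 and 17.1 in EPSCs, and 40.3 and 29.3 in hybrid cells. The 4 groups did not overlap, and both hybrid libraries lay above both parental lines. H19 rose in hybrid cells against EPSCs by 0.91 on the log2 scale (SE 0.15, adjusted p = 0.00337 by limma), 1.96 times by group means of 34.8 ± 7.80 and 17.8 ± 0.917 FPKM (SD, n = 2). It rose in hybrid cells against NSCs by 2.98 (adjusted p = 7.7e-07 by limma) and in EPSCs against NSCs by 2.07 (adjusted p = 6.1e-06 by limma). EPSCs held 12.8 times the H19 of ESCs, a log2 difference of 2.98 (adjusted p = 9.8e-06 by limma), which was the largest rise of the 9 genes in that comparison.

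Igf2 measured 3.98 and 3.79 FPKM in ESCs, 0.151 and 0.208 in NSCs, 3.83 and 4.0 in EPSCs, and 12.4 and 8.88 in hybrid cells. It rose in hybrid cells against EPSCs by 1.23 on the log2 scale (SE 0.14, adjusted p = 0.000728 by limma), and the EPSC and ESC levels overlapped (difference 0.01, adjusted p = 0.965 by limma). H19 over Igf2 was 0.401 and 0.309 in ESCs, 24.1 and 15.9 in NSCs, 4.80 and 4.28 in EPSCs, and 3.25 and 3.30 in hybrid cells. The ratio was thus highest in NSCs, where Igf2 was near 0, and lowest in ESCs.

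Fibroblast markers moved with H19 in hybrid cells against EPSCs and in EPSCs against ESCs, and with Igf2 in the first of these comparisons, but not in the second. All 12 markers were called higher in hybrid cells against EPSCs, where 22.5% of genes tested were, and 10 of 12 in EPSCs against ESCs, where 33.7% were. Col1a1, a collagen chain made by fibroblasts, measured 1.86 and 2.06 FPKM in ESCs, 0.226 and 0.192 in NSCs, 13.7 and 15.7 in EPSCs, and 61.0 and 46.2 in hybrid cells. H19 over Col1a1 was 0.860 and 0.566 in ESCs, 1.35 and 1.09 in EPSCs, 0.660 and 0.633 in hybrid cells, and 16.0 and 17.2 in NSCs, in which Col1a2, Twist2 and Lum were at 0. From ESCs through EPSCs to hybrid cells, the group levels of H19 and Col1a1 thus stood in the same order, and the part of fibroblasts in the H19 and Igf2 results was not tested.

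**Figure D4:**
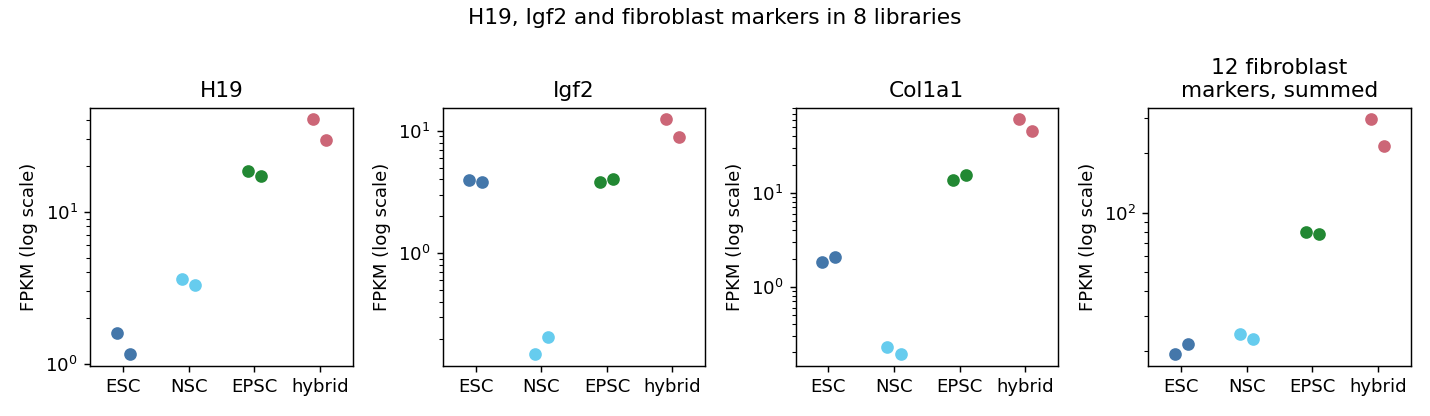
FPKM on a log axis of H19, Igf2, Col1a1 and the sum of 12 fibroblast markers in the 8 libraries, 1 point per library in each of the 4 groups. H19 and the fibroblast sum are both highest in the hybrid cells, and the sum runs from 215 to 295 FPKM there.

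Igf2r encodes the receptor that carries IGF2 to the lysosome for degradation and lies on the minus strand at chr17:12682406-12769706. It measured 8.63 and 8.85 FPKM in ESCs, 11.1 and 10.3 in NSCs, 15.1 and 18.9 in EPSCs, and 23.5 and 22.3 in hybrid cells. It was the only gene of the 9 above 8 FPKM in all libraries, and its 4 groups did not overlap. Igf2r rose in hybrid cells against EPSCs by 0.42 on the log2 scale (SE 0.10, adjusted p = 0.0146 by limma), 1.35 times by group means. The adjusted p was 0.0544 without hybrid replicate 1 and 0.0823 when only these 2 groups were fitted, and the difference was 0.27 without EPSC replicate 1, at 0.0460. In EPSCs against ESCs Igf2r rose by 0.88 (adjusted p = 0.000295 by limma), and in hybrid cells against NSCs by 1.03 (adjusted p = 3.2e-05 by limma), which was 0.46 at 0.00742 when every library was scaled to a sum of 1000000. The rise of 0.62 in EPSCs against NSCs (adjusted p = 0.000670 by limma) was 0.05, with an adjusted p of 0.732, under this scaling, which moved the median difference of all genes tested to −0.51 and −0.48 in these comparisons. The fibroblast sums above rose in the same order in ESCs, EPSCs and hybrid cells, and their part in the Igf2r result was not tested.

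Airn is the paternally expressed noncoding RNA that starts within Igf2r and runs on the opposite strand, at chr17:12741311-12859884. It measured 0.0926 and 0.110 FPKM in ESCs, 2.48 and 2.77 in NSCs, 0.559 and 1.01 in EPSCs, and 1.33 and 1.30 in hybrid cells. Airn over Igf2r was 0.0107 and 0.0124 in ESCs, 0.224 and 0.269 in NSCs, 0.0369 and 0.0538 in EPSCs, and 0.0565 and 0.0584 in hybrid cells. Relative to Igf2r, Airn was thus highest in NSCs and lowest in ESCs. Airn rose in EPSCs against ESCs by 0.69 on the log2 scale (adjusted p = 0.00200 by limma), and it fell in hybrid cells against NSCs by 0.65 (adjusted p = 0.00128 by limma), or by 1.26 under scaling to equal sums. Its difference between hybrid cells and EPSCs was 0.39 at an adjusted p of 0.0353 by limma, a call that most alternatives lost, with an adjusted p from 0.00535 to 0.128. Without EPSC replicate 1 this difference was 0.20, at 0.128. The libraries were stranded, but the strand setting of the counting is not given in the sources used here, so reads of the overlapping stretch could have been assigned to either gene. From ESCs through EPSCs to hybrid cells, the group levels of Airn also stood in the order of the fibroblast sums. The part of fibroblasts in the Airn result was not tested.

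Grb10 encodes an adaptor that binds the insulin and IGF1 receptors and lies on the minus strand at chr11:11930499-12037428. In most tissues it is expressed from the maternal copy, whereas neurons use the paternal copy from another promoter. The 250 bases before the transcript start at position 12037420, chr11:12037421-12037670 on the minus strand (RefSeq, GRCm38.p6), of which 8 lie inside the gene span, are shown because this window was the richest in CG among the windows of these genes, and CG dinucleotides are in capitals.
Grb10: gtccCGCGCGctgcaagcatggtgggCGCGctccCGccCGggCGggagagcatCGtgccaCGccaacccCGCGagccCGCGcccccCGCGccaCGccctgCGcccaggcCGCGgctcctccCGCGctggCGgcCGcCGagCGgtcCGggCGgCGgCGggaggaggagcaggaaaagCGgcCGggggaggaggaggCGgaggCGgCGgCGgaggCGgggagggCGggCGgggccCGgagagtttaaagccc
It held 40 CG dinucleotides, a number reached by 1.31% of all promoter windows, and the GC box letters GGGCGG 5 times on both strands, which 32.7% of windows held at least once. The window before another start, inside the gene span, had 8 CG dinucleotides.

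Grb10 measured 11.7 and 11.4 FPKM in ESCs, 0.0307 and 0.00758 in NSCs, 35.7 and 35.4 in EPSCs, and 15.4 and 15.0 in hybrid cells. EPSCs were the highest group, hybrid cells lay between EPSCs and ESCs, and the 2 libraries of each pluripotent group nearly coincided. Grb10 fell in hybrid cells against EPSCs by 1.17 on the log2 scale (SE 0.07, adjusted p = 9.5e-05 by limma), so that the EPSC mean was 2.34 times the hybrid mean. It rose in EPSCs against ESCs by 1.55 (adjusted p = 4.2e-06 by limma), 3.08 times by group means. Most fibroblast markers were also higher in EPSCs than in ESCs, and they were higher in hybrid cells than in EPSCs, where Grb10 fell. The part of fibroblasts in the Grb10 results was not tested. Against NSCs the differences were 3.99 in hybrid cells (adjusted p = 3.4e-09 by limma) and 5.17 in EPSCs (adjusted p = 1.5e-09 by limma). The NSC levels of Grb10 correspond to few fragments, so no ratio is given.

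Cdkn1c, Phlda2 and Slc22a18 lie beside each other in the Kcnq1 domain, which is controlled by the paternally expressed noncoding RNA Kcnq1ot1. Cdkn1c is on the minus strand at chr7:143458339-143461059, Slc22a18, a membrane transporter gene, on the plus strand at chr7:143473726-143499334, and Phlda2 on the minus strand at chr7:143501545-143503145. Cdkn1c measured 14.1 and 14.8 FPKM in ESCs, 0.735 and 1.02 in NSCs, 4.57 and 4.21 in EPSCs, and 3.70 and 3.12 in hybrid cells. It was highest in ESCs and lowest in NSCs, without overlap of any groups. Cdkn1c fell in EPSCs against ESCs by 1.52 on the log2 scale (adjusted p = 3.6e-05 by limma), so that the ESC mean was 3.30 times the EPSC mean, and it rose in hybrid cells against NSCs by 1.23 (adjusted p = 1.6e-05 by limma), 3.89 times by group means. The difference of −0.29 (SE 0.11) between hybrid cells and EPSCs did not pass, at an adjusted p of 0.0634 by limma, which ranged from 0.0304 to 0.224 over the alternatives.

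Phlda2, whose product carries a pleckstrin homology domain and restrains placental growth, was listed at 0 in NSCs and was the most abundant of the 9 genes in ESCs, EPSCs and one of the hybrid libraries. The 250 bases before the transcript start at position 143502524, chr7:143502525-143502774 on the minus strand (RefSeq, GRCm38.p6), are shown beside that absence, with CG dinucleotides in capitals. This start lies inside the gene span given above, so that all 250 bases are within the span.
Phlda2: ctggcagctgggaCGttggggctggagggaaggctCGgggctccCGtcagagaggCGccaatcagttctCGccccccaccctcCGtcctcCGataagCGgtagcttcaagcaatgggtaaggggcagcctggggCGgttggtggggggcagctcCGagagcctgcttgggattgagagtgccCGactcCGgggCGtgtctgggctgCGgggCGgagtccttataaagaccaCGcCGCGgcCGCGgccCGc
It held 21 CG dinucleotides, a number reached by 16.3% of all windows, with GGGCGG 2 times and TATAAA 1 time. The Slc22a18 window, with 63 bases inside the gene span, held 0 CG dinucleotides.

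Phlda2 measured 79.1 and 73.7 FPKM in ESCs, 62.8 and 81.6 in EPSCs, and 27.2 and 32.8 in hybrid cells. ESCs and EPSCs overlapped, and both hybrid libraries lay below them. Phlda2 fell in hybrid cells against EPSCs by 1.23 on the log2 scale (SE 0.13, adjusted p = 0.000635 by limma), from 72.2 ± 13.3 to 30.0 ± 3.98 FPKM (SD, n = 2), and its difference in EPSCs against ESCs was −0.09 (SE 0.13, adjusted p = 0.581 by limma). Against NSCs the difference in hybrid cells was 4.95 (adjusted p = 2.8e-08 by limma).

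Slc22a18 measured 3.74 and 4.44 FPKM in ESCs, 0.0536 and 0.0268 in NSCs, 2.82 and 2.11 in EPSCs, and 1.69 and 1.85 in hybrid cells. Its groups did not overlap and ran from ESCs through EPSCs and hybrid cells to NSCs. It fell in EPSCs against ESCs by 0.56 on the log2 scale (SE 0.12, adjusted p = 0.00481 by limma), and its difference of −0.32 (SE 0.12) between hybrid cells and EPSCs did not pass, at an adjusted p of 0.0643 by limma. It was −0.46 without EPSC replicate 2, at 0.0208, and −0.17 without EPSC replicate 1, at 0.285. In hybrid cells against NSCs the difference was 1.41 (adjusted p = 1.1e-05 by limma). Kcnq1ot1 stayed between 0.0859 and 0.132 FPKM in all libraries and was not tested. The 3 genes of the domain thus shared their lowest level in NSCs, and of these 3 Cdkn1c fell most from ESCs to EPSCs.

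The hybrid cells were placed between their parents by log2(FPKM + 1), where 0 stands for the NSC mean and 1 for that of EPSCs. H19 was at 1.45 and Igf2r at 1.66, outside the parental range. When libraries were scaled to equal sums, H19 was at 1.58 and Igf2r at 8.04, because the Igf2r levels of the parents were then nearly alike. Meg3 was at 0.902, Slc22a18 at 0.815, Cdkn1c at 0.810, Phlda2 at 0.80, Rian at 0.798 and Grb10 at 0.773, and Mirg was lowest at 0.523. The median was 0.810. In FPKM, the hybrid mean divided by the mean of both parents was 3.28 for H19, 1.65 for Igf2r, 1.41 for Slc22a18, 1.38 for Meg3 and 1.30 for Cdkn1c. It was 0.924 for Rian, 0.855 for Grb10, 0.832 for Phlda2 and 0.544 for Mirg. These positions carry no test.

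Other maternally expressed genes, imprint maintenance genes and IGF pathway genes were read from lists written with results of these data known. Of 20 other maternally expressed genes, 13 were tested, and 3 rose and 4 fell in hybrid cells against EPSCs, with a median of −0.11, where 22.5% of genes tested were called higher and 21.9% lower. Tnfrsf23, a decoy receptor gene, rose by 0.98 on the log2 scale (adjusted p = 0.000393 by limma). Osbpl5, an oxysterol-binding protein gene, rose by 0.90 (adjusted p = 0.000580 by limma), and Ube3a, a ubiquitin ligase gene, fell by 0.82 (adjusted p = 0.00125 by limma). In EPSCs against ESCs 4 rose and 3 fell, beside 33.7% and 27.3% of genes tested. Tnfrsf23 rose by 1.11 (adjusted p = 6.6e-05 by limma) and Gnas, which encodes a stimulatory G protein subunit, fell by 0.99 (adjusted p = 8.8e-06 by limma). Most fibroblast markers were also higher in both comparisons, and their part in the Tnfrsf23 and Osbpl5 results was not tested. Unlike the 9 members, most of the 13 genes were lower than in NSCs. In hybrid cells 3 rose and 9 fell (median −0.80), beside 44.5% of genes tested called higher and 86.5% called in either direction. In EPSCs 4 rose and 8 fell (median −0.475), beside 45.2% called higher and 86.2% called in either direction.

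Imprint maintenance genes encode factors that keep or remove methylation. All 12 were tested, and in hybrid cells against EPSCs 1 rose and 4 fell, beside 22.5% and 21.9% of genes tested, with a median of −0.13. Dnmt3a, a de novo DNA methyltransferase gene, fell by 1.00 on the log2 scale (adjusted p = 0.00389 by limma), and Tet2, which encodes an enzyme that oxidises methylcytosine, fell by 0.78 (adjusted p = 0.00317 by limma). Zfp57, which encodes the zinc finger protein that holds imprints in the embryo, measured 257 and 260 FPKM in ESCs, 4.68 and 4.56 in NSCs, 207 and 214 in EPSCs, and 217 and 206 in hybrid cells. Its EPSC and hybrid levels overlapped, and NSCs were far below. In EPSCs against ESCs 4 rose and 3 fell, beside 33.7% and 27.3% of genes tested, among them Dppa3, which protects maternal methylation in the zygote, up by 1.24 (adjusted p = 0.000110 by limma), and Tet1, up by 0.69 (adjusted p = 0.000807 by limma).

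The IGF pathway carries the signal that Igf2r and Grb10 restrain. Of 13 genes, 12 were tested, and 7 rose and 0 fell in hybrid cells against EPSCs, with a median of 0.34. Of all genes tested, 22.5% were called higher and 21.9% lower. All 12 fibroblast markers were also called higher in this comparison, and their part in the count was not tested. Igf2bp2, which encodes an RNA-binding protein of Igf2 transcripts, rose by 1.40 on the log2 scale (adjusted p = 8.3e-05 by limma), from a mean of 20.7 to 56.4 FPKM. Igfbp5, which encodes an IGF-binding protein that fibroblasts also secrete, rose by 1.02 (adjusted p = 0.000798 by limma), with the fibroblast markers higher in the same libraries, and their part was not tested. In EPSCs against ESCs 4 rose and 3 fell, beside the same 33.7% and 27.3%, among them Igf2bp2, which fell by 1.00 (adjusted p = 4.8e-05 by limma) from a mean of 42.4 to 20.7 FPKM, and Igfbp2, which fell by 0.81 (adjusted p = 0.00186 by limma) from 384 to 218 FPKM.

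The genes whose log2(FPKM + 1) followed the members most closely over the 8 libraries were listed by Pearson's r as a description, since the points are 4 groups of 2 libraries. For H19 they were Psmc1 (r = 0.998), Vps13a (0.996) and Cpsf3 (0.996). For Meg3 they were Syk, Fam169a and Nob1 (each 0.999). For Cdkn1c they were Coch, Ccdc138 and Atp2a3 (each 0.996). Among pairs of members r ran from −0.28 for H19 and Cdkn1c to 0.995 for Meg3 and Rian, and pairs from different domains were also high, such as Meg3 and Phlda2 at 0.988.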

How the data were processed

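The authors prepared poly-A selected, stranded, paired-end libraries, aligned trimmed reads with STAR 2.7.9a to mm10 and took gene levels from Cuffnorm (Cufflinks 2.2.1), per the labels' processing notes and the methods. They deposited FPKM per gene and library, without pooling replicates. The annotation, strand setting and library normalization are not given in the sources used here. Columns were mapped to libraries by their names, and 0 columns belonged to other samples.

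Genes with a mean of at least 1 FPKM in at least 1 group (13239, including all 9 members, of 24354) were fitted with limma 3.58.1 (R 4.3.3; lmFit, contrasts, eBayes with trend). The values were log2(FPKM + 1), all 8 libraries entered one model of 4 residual degrees of freedom, and tests were two-sided with the Benjamini-Hochberg adjustment over all genes tested. On simulated data of 13239 genes for hybrid cells against EPSCs, 86 of 100 genes changed by a log2 of 1 and 100 of 100 changed by a log2 of 2 were called, with 10 unchanged genes called. Tables and figures used Python 3.11.15 (pandas 2.3.3, numpy 2.4.6, matplotlib 3.10.9). Depth was estimated from steps of low FPKM in 2247 genes, assuming fragments of 200 bases; these steps gave near-whole fragments for 78.6% to 86.7% of values, within 0.1, so no count test was run.

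The members and lists were chosen with earlier results of these data known. The text names every member, every paternally expressed partner, up to 4 genes of each other list, each ranked by its largest called change in hybrid cells against EPSCs or EPSCs against ESCs, and 3 pattern neighbours of H19, Meg3 and Cdkn1c, and Dnmt3l, Zfp57 and Col1a1, which were chosen after their values were seen. Alternatives were another pseudocount, no filter, scaling to equal sums, quantile normalization, a replicate block, fits of only 2 groups, other fold thresholds, another reading of the fold rule (added after the data were seen) and leaving out each library. Sequences and positions come from RefSeq on GRCm38.p6, the build of mm10, and promoter windows matched 7 of the 9 members.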

Additional observations from a re-analysis of the deposited data

How the results depend on the processing

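Of 504 combinations of a member's difference in 1 comparison with an alternative, 483 kept direction and side of the threshold, 7 lost a call, 13 gained one and 1 turned. The turn was Phlda2 in EPSCs against ESCs, which was −0.09, became 0.095 without EPSC replicate 1 (adjusted p = 0.530 by limma) and ran from −0.28 to 0.095 when a library was left out. The number of members past the fold rule between hybrid cells and EPSCs was 1, became 4 with both thresholds at 2, and ran from 0 to 1 when a library was left out. The median position of the hybrid cells between their parents was 0.810, was 0.871 with a pseudocount of 0.1, and ran from 0.786 to 0.872 when a library was left out, lowest without EPSC replicate 2 and highest without EPSC replicate 1. Fitting only hybrid cells and EPSCs called 2811 genes against 5881, and 4 members against 6. The cause was not tested. A pseudocount of 0.1 moved the members' median difference from NSCs from 2.98 to 4.47 in hybrid cells and from 3.08 to 6.23 in EPSCs. Scaling to equal sums moved the median difference of all genes tested from NSCs to −0.51 in hybrid cells and −0.48 in EPSCs, and that of the members to 2.55 and 3.67.

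The labels number the libraries 1 and 2 in every group without saying what the numbers share, and same-numbered deviations correlated at 0.28 in hybrid cells against EPSCs and between −0.02 and 0.07 in the other comparisons. With the replicate block, 7 members were called in hybrid cells against EPSCs (Meg3 added, adjusted p = 0.0273 by limma) and 8 in EPSCs against ESCs (Rian added, 0.0312), with 9 in each comparison with NSCs. Of the 13239 genes, the block called 6060 against 5881 in hybrid cells against EPSCs, 8250 against 8079 in EPSCs against ESCs, 11511 in hybrid cells against NSCs and 11441 in EPSCs against NSCs.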
